A study of Mus musculus with 6 samples.

Results

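The WNT pathway was followed in cultured mouse neurons of the dorsal root ganglia (DRGs), the clusters of sensory cells beside the spinal cord, through its ligands, receptors, inhibitors, intracellular components and targets. Members were taken by symbol: the Wnt ligands, the frizzled (Fzd) receptors, Lrp5 and Lrp6, the R-spondins (Rspo) with Lgr4, Lgr5 and Lgr6, Rnf43, Znrf3, the inhibitors of the Dkk, Sfrp, Wif1 and Notum families, Dvl1 to Dvl3, Axin1, Axin2, Apc, Ctnnb1, Nkd1, Nkd2, and the TCF/LEF factors. A symbol counted as a member with at least 10 raw counts in 3 or more of the 6 libraries. Of the 35976 genes listed, 63 had such a symbol and 54 of these were members. At the limit, Wnt10b was just inside with a third-highest count of 10, followed by Wif1 with 12, and Wnt3 was just outside with 9. The other symbols outside the limit were Wnt1, Wnt3a, Wnt8a, Wnt8b, Wnt9b, Wnt10a, Dkk1 and Dkk4.

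The study asked whether a long exposure to HC-HA/PTX3, a water-soluble hyaluronan complex purified from human amniotic membrane, changes gene expression in DRG neurons. Cells came from DRGs of all lumbar levels of wildtype C57BL/6 mice of both sexes, aged 2 to 3 months, were dissociated with enzymes and were grown in DMEM/F-12 with serum, GDNF and other supplements. The exposure, to vehicle in 3 cultures and to 15 µg/mL HC-HA/PTX3 in 3 others, began 24 h after plating and lasted 24 h. Total RNA depleted of ribosomal RNA was sequenced from paired ends, and the files give a raw read count for every gene. The vehicle libraries held 42516054, 42617496 and 54117547 counts and the HC-HA/PTX3 libraries 37998071, 37434266 and 38420247, in the order of replicate numbers 1, 2 and 3, which is kept for all values below. Levels are given in CPM, counts scaled to a common library size after TMM normalization, where 3 counts stood for 0.0536 to 0.0808 CPM. The study speaks of biological replicates, but the sources used here do not say whether the cultures came from separate animals, so p-values measure only the spread between these cultures, which may be technical.

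WNT ligands are secreted lipid-modified proteins that bind frizzled receptors and the LRP5/LRP6 co-receptors, which protects beta-catenin from destruction and lets it act with TCF/LEF factors on target genes. R-spondins, through LGR receptors, keep the ubiquitin ligases RNF43 and ZNRF3 from removing frizzled receptors, and several targets such as Axin2 and Rnf43 feed back on the pathway. In the peripheral nervous system WNT signals are known for roles in sensory neuron development, glia and pain.

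Treatments were compared with edgeR's quasi-likelihood test on all genes, blocked on the replicate number, so that each HC-HA/PTX3 culture was set against the vehicle culture of its number. A gene was called at a Benjamini-Hochberg adjusted p under 0.05 with a log2 fold change past 0.5 in size. Of the 53 members tested, 3 were called higher and 10 lower after HC-HA/PTX3, 13 in all (24.5%), beside 1591 of all 18277 tested genes (8.7%). Without replicate 1 these counts were 6 members (11.3%) and 878 genes (4.74%). The background was 3.32% for higher calls and 5.38% for lower calls, and the 607 higher and 984 lower calls became 1012 and 1115 after ComBat-seq followed by limma, 360 and 851 with DESeq2, and 248 and 630 without replicate 1. Of the 54 members, Wif1 failed the low-count filter. Of the 53 that passed, 6 had fewer than 3 libraries over it in a group, 1 of them called (Rnf43). A filter of at least 10 counts in every library removed Rnf43 among others. It left 48 members, of which 12 (25%) were called, beside 8.9% of all genes tested there. The median log2 fold change was -0.09 over the tested members and -0.01 over all tested genes. All of these calls needed the block. Without it, the same test called 0 members and 0 of all genes (0%), with 7 members (13.2%) and 2089 genes (11.4%) at an unadjusted p under 0.05, and the 13 called members had adjusted p of 0.257 to 0.753. The block was chosen with both counts known, and the labels give a replicate number but do not call it a batch. All 13 called members moved the same way in 3 of 3 pairs of cultures, as did 1587 of all 1591 called genes, so a call in the blocked fit nearly fixes this. Of the 13, 5 had groups that did not overlap, beside 940 of the 1591. Groups did not overlap in 8 of the 53 tested members (15.1%), a share near that over all tested genes (18%).

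Markers of several cell types in the cultures moved with the treatment, with the replicate number or with both. Neuronal markers were abundant, with a summed level over 8 genes of 8296, 6513 and 7325 CPM in the vehicle cultures and 8485, 6929 and 8179 CPM in the HC-HA/PTX3 cultures, Nefl being the most abundant, and 0 of 8 were called between treatments. Of the 8, 5 (62.5%) differed between replicate numbers in the same fit at an adjusted p under 0.05, beside 33.8% of all tested genes. All 6 genes of dividing cells were called lower, with sums of 655, 454 and 202 CPM in the vehicle and 223, 227 and 36.6 CPM in the HC-HA/PTX3 cultures, Mki67 being the most abundant. Of 6 fibroblast genes, the collagens Col1a1, Col1a2 and Col3a1 were called lower while Dcn, Lum and Pdgfra were not, with sums of 2138, 2152 and 895 CPM against 1151, 1382 and 303 CPM, Col3a1 leading. Satellite glia genes had 0 of 6 calls between treatments but sums of 1490.0, 776 and 343 CPM and 1373, 803 and 368 CPM, Apoe leading, so that pair 1 was highest and pair 3 lowest in both groups. Macrophage genes had 3 of 8 called lower (C1qa, C1qb and Cd163), with sums of 77.4, 102 and 86.0 CPM and 71.0, 102 and 62.7 CPM, Lyz2 leading. Of these, Cd163 had only 1 HC-HA/PTX3 library over the low-count filter. It reached the test through the vehicle libraries, where it is high, so its call supports nothing. The endothelial list had 0 of 6 called, with sums of 235, 256 and 281 CPM and 236, 284 and 257 CPM, Cdh5 leading, and the mural list had 1 of 6 called lower, Acta2, with sums of 410.5, 484 and 376 CPM and 396, 467 and 253 CPM, Rgs5 leading. No marker of these lists was at 0 in all libraries. The part of these cells in the results on WNT genes was not tested, and in such mixed cultures fewer cells of a type and less RNA per cell cannot be told apart.

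**Figure D1:**
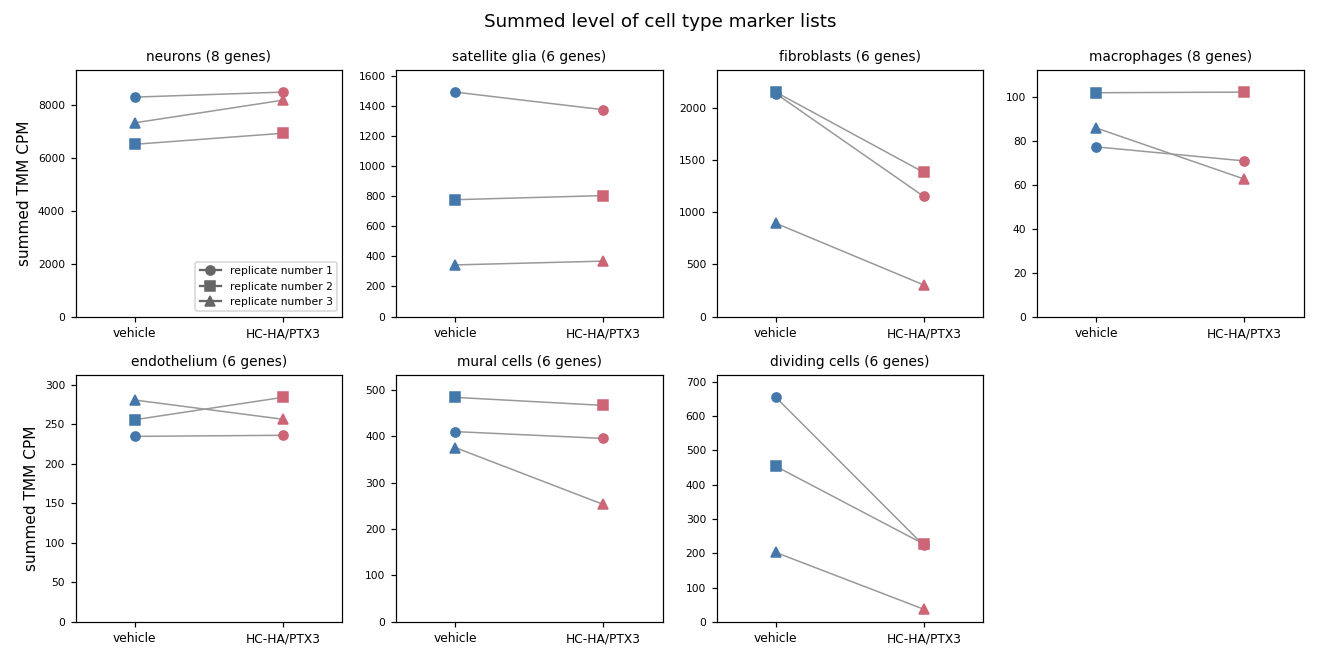
Summed TMM CPM of the marker lists described above in every culture (vertical axes start at 0), with vehicle in blue, HC-HA/PTX3 in red and a line joining cultures of the same replicate number. The dividing-cell, fibroblast and mural sums were lower after HC-HA/PTX3 in all 3 pairs, and the neuronal sum was higher in all 3. The satellite glia, fibroblast, mural and dividing-cell sums were lowest in pair 3 of both groups.

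Among the 12 ligand genes, Wnt2b had the highest level per length, 5.79 CPM per kb of exons over the 6 libraries, followed by Wnt5a at 3.06 and Wnt9a at 2.93 CPM per kb. In the vehicle cultures Wnt2b was at 4.30 ± 1.13 CPM per kb and Wnt5a at 3.54 ± 0.555 CPM per kb (SD, n = 3). The gap between them was within the SD of Wnt2b but not that of Wnt5a. The lowest ligand over the 6 libraries was Wnt10b, at 0.0701 CPM per kb. Of the 12, 2 were called higher and 2 lower, and the median log2 fold change was 0.28.

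**Figure D2:**
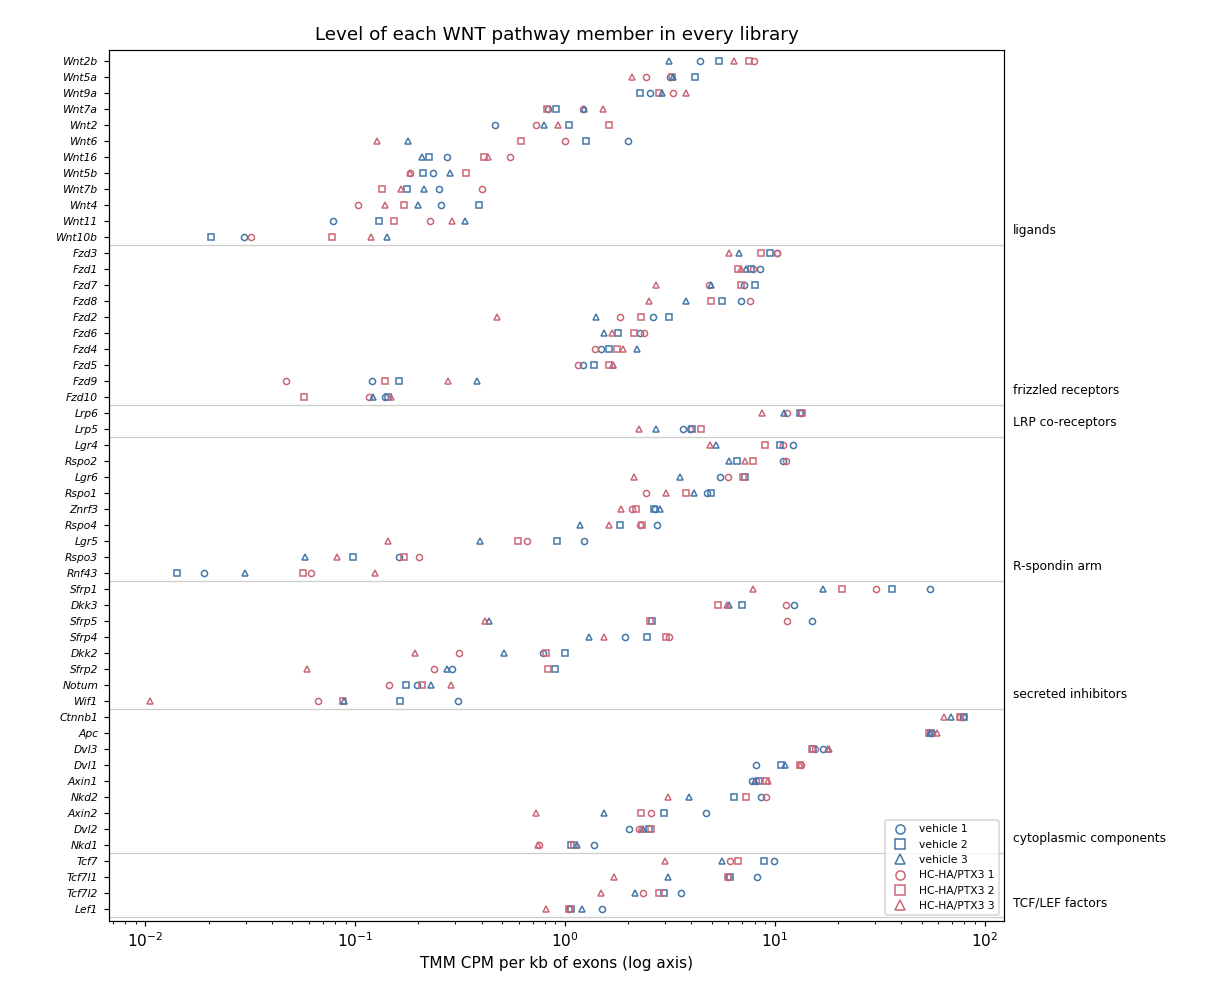
Level of each of the 54 members in every library, in TMM CPM per kb of exons on a log axis, ordered within roles, with vehicle in blue, HC-HA/PTX3 in red and the symbol giving the replicate number. Over the 6 libraries Ctnnb1, at 74.0 CPM per kb, was the highest and Rnf43, at 0.0508 CPM per kb, the lowest.

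Wnt2b, a ligand of the beta-catenin branch (chromosome 3 of mm10, 104945272 to 104961921), was at 18.4, 22.7 and 13.2 CPM in the vehicle cultures and 33.4, 31.8 and 26.7 CPM in the HC-HA/PTX3 cultures. Every HC-HA/PTX3 culture was above every vehicle culture. Its log2 fold change was 0.79 ± 0.11 (SE, n = 3 pairs; adjusted p = 0.00145). Wnt16, a ligand best known from bone and joint tissue (chromosome 6 of mm10, 22288227 to 22298522), had 1.20, 0.978 and 0.911 CPM with vehicle and 2.37, 1.79 and 1.88 CPM with HC-HA/PTX3. These groups did not overlap either, and the lowest HC-HA/PTX3 culture was replicate 2. The log2 fold change of Wnt16 was 0.97 ± 0.21 (SE; adjusted p = 0.0101).

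Wnt4, a ligand with roles in kidney and gonad development (chromosome 4 of mm10, 137277489 to 137299726), was low, at 1.07, 1.63 and 0.839 CPM in the vehicle and 0.431, 0.712 and 0.584 CPM in the HC-HA/PTX3 cultures, from counts of 43, 70 and 47 and 16, 27 and 23. The groups did not overlap, with the highest HC-HA/PTX3 culture, replicate 2, just under the lowest vehicle culture, replicate 3. The fitted log2 fold change of Wnt4 was -1.0 ± 0.28 (SE; adjusted p = 0.0298). Wnt6, a ligand made by many epithelia (chromosome 1 of mm10, 74771892 to 74785322), was at 4.39, 2.77 and 0.393 CPM with vehicle and 2.18, 1.35 and 0.279 CPM with HC-HA/PTX3. The groups overlapped widely because pair 3 was far under the others, and HC-HA/PTX3 was the lower culture in each pair. The log2 fold change of Wnt6 was -0.94 ± 0.21 (SE; adjusted p = 0.0131). Without replicate 1 the adjusted p was 0.0635 for Wnt16, 0.136 for Wnt6 and 0.140 for Wnt4, and without replicate 2 it was 0.0854 for Wnt6 and 0.147 for Wnt4, so these calls were lost. Over its alternatives, the adjusted p ran from 0.000255 to 0.257 for Wnt16, from 0.000266 to 0.753 for Wnt6 and from 0.00210 to 0.348 for Wnt4.

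Wnt5a, the main ligand of the branches that do not use beta-catenin, was at 24.8, 32.7 and 25.6 CPM with vehicle and 19.1, 25.3 and 16.4 CPM with HC-HA/PTX3. It was lower in 3 of 3 pairs, though the groups overlapped, since HC-HA/PTX3 replicate 2 lay above vehicle replicate 1. Its log2 fold change of -0.46 ± 0.09 (SE) had an adjusted p of 0.00727 but missed the fold threshold, and it passed without replicate 1 (-0.50, adjusted p = 0.0336) and without replicate 2 (-0.51, adjusted p = 0.0337), among adjusted p of 0.000147 to 0.447 over its alternatives. Wnt2, a ligand known from lung and placenta, was at 1.05, 2.35 and 1.79 CPM with vehicle and 1.64, 3.64 and 2.08 CPM with HC-HA/PTX3. HC-HA/PTX3 was the higher culture in 3 of 3 pairs, the groups overlapped, and the log2 fold change of 0.49 ± 0.19 (SE) did not pass (adjusted p = 0.10) but did after ComBat-seq (0.51). Wnt9a, named after its values were seen, shifted by a log2 fold of 0.35 ± 0.11 (SE; adjusted p = 0.0477), under the fold threshold. Wnt10b, at the count limit, had counts of 4, 3 and 27 with vehicle and 4, 10 and 16 with HC-HA/PTX3, and its log2 fold change of 0.32 ± 0.49 (SE) did not pass (adjusted p = 0.694). The remaining 4 ligands, Wnt5b, Wnt7a, Wnt7b and Wnt11, had log2 fold changes from -0.09 to 0.39, and none was called.

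**Figure D3:**
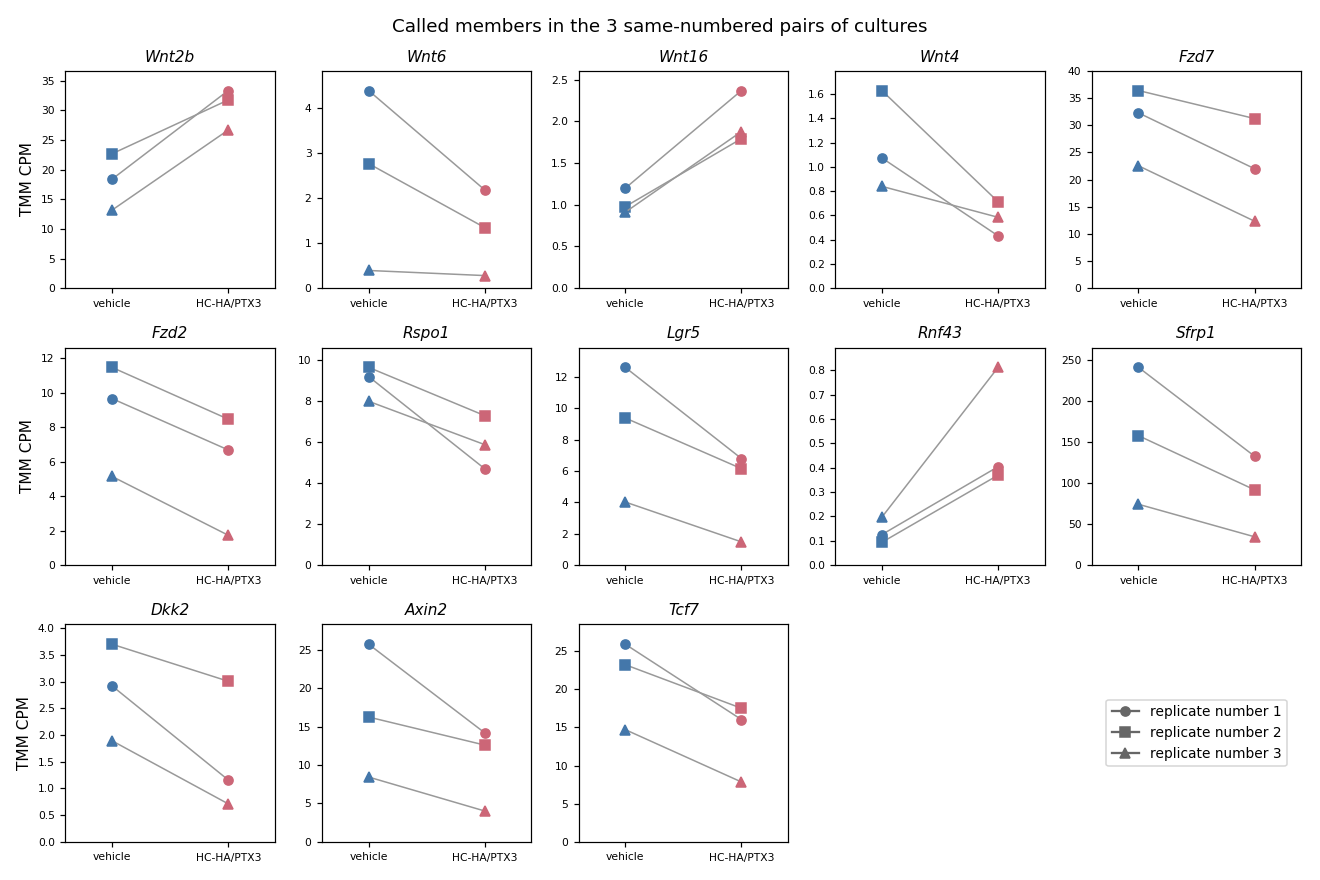
TMM CPM of the 13 called members in every culture (vertical axes start at 0), with vehicle in blue, HC-HA/PTX3 in red and a line joining cultures of the same replicate number. All lines of Wnt2b, Wnt16 and Rnf43 rise and those of the other 10 members fall. Pair 3 lies under the other pairs in Wnt6, Fzd2, Lgr5, Sfrp1, Tcf7 and Axin2.

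The letters CTTTGAT and CTTTGAA, core sequences that TCF/LEF factors are known to bind, were searched on both strands of 300-base promoter windows of RefSeq (GRCm38.p6, 250 bases before to 50 after a transcript start). Windows were held for 36 of the 54 members, 46 windows in all, and 2 of the 46 (4.35%) had a match, beside 2842 of all 32851 windows (8.65%). Among the 13 called members, 10 had windows, 12 in all, and 0 of these had a match. The matches were in Wnt11 and in Wnt5b, ligands that were not called. A window each is shown for these genes, for the ligands called higher, Wnt2b and Wnt16, and for the feedback target Axin2, with matched letters in capitals and all other bases in lower case. They lie at chr7:98834862-98835161 (plus strand) for Wnt11, chr6:119449337-119449636 (minus strand) for Wnt5b, chr3:104961660-104961959 (minus strand) for Wnt2b, chr6:22287977-22288276 (plus strand) for Wnt16 and chr11:108920099-108920398 (plus strand) for Axin2.
Wnt11: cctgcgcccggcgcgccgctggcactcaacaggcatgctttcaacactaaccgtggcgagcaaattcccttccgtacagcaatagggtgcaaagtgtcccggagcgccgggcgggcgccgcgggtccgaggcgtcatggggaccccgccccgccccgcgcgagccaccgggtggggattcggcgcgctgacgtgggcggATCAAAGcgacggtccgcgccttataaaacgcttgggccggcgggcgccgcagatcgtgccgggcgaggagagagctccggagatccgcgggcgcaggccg
Wnt5b: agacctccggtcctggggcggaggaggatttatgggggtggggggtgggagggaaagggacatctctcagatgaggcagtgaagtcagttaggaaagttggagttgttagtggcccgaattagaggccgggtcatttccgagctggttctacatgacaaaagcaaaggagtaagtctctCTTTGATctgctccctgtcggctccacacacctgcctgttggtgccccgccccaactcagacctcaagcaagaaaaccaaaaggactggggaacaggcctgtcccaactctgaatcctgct
Wnt2b: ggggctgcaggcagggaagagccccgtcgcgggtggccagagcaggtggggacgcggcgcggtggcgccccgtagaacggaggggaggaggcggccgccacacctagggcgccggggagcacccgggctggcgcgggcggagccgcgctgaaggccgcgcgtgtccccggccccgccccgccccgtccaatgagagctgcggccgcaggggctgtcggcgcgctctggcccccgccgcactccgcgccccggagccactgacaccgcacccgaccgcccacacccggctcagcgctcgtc
Wnt16: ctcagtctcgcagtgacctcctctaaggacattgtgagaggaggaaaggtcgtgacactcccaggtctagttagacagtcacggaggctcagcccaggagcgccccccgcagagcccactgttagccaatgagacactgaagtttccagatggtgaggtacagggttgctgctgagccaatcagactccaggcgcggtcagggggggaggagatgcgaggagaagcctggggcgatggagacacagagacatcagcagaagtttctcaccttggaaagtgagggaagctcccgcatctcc
Axin2: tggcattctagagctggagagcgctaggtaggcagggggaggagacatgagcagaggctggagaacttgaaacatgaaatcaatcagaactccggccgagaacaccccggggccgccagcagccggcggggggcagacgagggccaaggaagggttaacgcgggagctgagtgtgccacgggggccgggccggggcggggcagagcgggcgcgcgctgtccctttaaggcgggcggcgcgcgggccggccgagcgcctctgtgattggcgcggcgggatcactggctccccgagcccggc
In Wnt11 the letters ATCAAAG are the reverse complement of CTTTGAT, starting at -51 from the transcript start, and in Wnt5b CTTTGAT starts at -71. A match is a description of the letters, and a window without a match says only that these letters are not in it.

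The 10 frizzled receptor genes, which encode the membrane receptors that bind WNT ligands, had 2 lower calls and 0 higher calls, with a median log2 fold change of -0.16. Fzd3, needed for axon growth and guidance, had the highest level per length of the family over the 6 libraries, 8.56 CPM per kb. Fzd1 followed at 7.49 CPM per kb, and in pair 3 of each group Fzd1 was the higher per length. Fzd3 was at 131, 121 and 86.0 CPM with vehicle and 131, 110.4 and 77.8 CPM with HC-HA/PTX3. The groups overlapped almost fully, and the log2 fold change of -0.09 ± 0.06 (SE) did not pass (adjusted p = 0.332; -0.05 without replicate 3). Fzd7, a receptor of the beta-catenin branch (chromosome 1 of mm10, 59482424 to 59486955), was at 32.3, 36.4 and 22.5 CPM with vehicle and 22.0, 31.2 and 12.3 CPM with HC-HA/PTX3. HC-HA/PTX3 was the lower culture in each pair, with overlapping groups. The log2 fold change of Fzd7 was -0.54 ± 0.12 (SE; adjusted p = 0.0103).

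Fzd2, a close relative of Fzd7 (chromosome 11 of mm10, 102604396 to 102608058), had 9.66, 11.5 and 5.14 CPM with vehicle and 6.68, 8.47 and 1.73 CPM with HC-HA/PTX3. Replicate 3 was lowest in both groups, and the groups overlapped. For Fzd2 the log2 fold change was -0.78 ± 0.19 (SE; adjusted p = 0.0200). Both calls were lost without replicate 1 (adjusted p = 0.0648 for Fzd7 and 0.0594 for Fzd2), and without replicate 3 both log2 fold changes missed the threshold (-0.37 for Fzd7 and -0.47 for Fzd2). Fzd7 also missed it after ComBat-seq (-0.49), and over the alternatives the adjusted p ran from 3.85e-06 to 0.657 for Fzd7 and from 2.01e-06 to 0.736 for Fzd2. Fzd9 was near the count limit, with counts of 11, 16 and 49 and 4, 12 and 25, and its log2 fold change of -0.54 ± 0.35 (SE) did not pass (adjusted p = 0.313). The other 6 receptors had log2 fold changes from -0.33 (Fzd10) to 0.14 (Fzd6), and none was called. Of the co-receptors, Lrp6 was the higher per length at 11.9 CPM per kb against 3.50 for Lrp5. Lrp6 was at 182, 181 and 152 CPM with vehicle and 155, 184 and 119 CPM with HC-HA/PTX3, which overlapped. Neither was called, with log2 fold changes of -0.19 ± 0.08 for Lrp6 and 0.00 ± 0.09 (SE) for Lrp5, and Lrp6 was at -0.30 without replicate 2 and -0.09 without replicate 3.

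**Figure D4:**
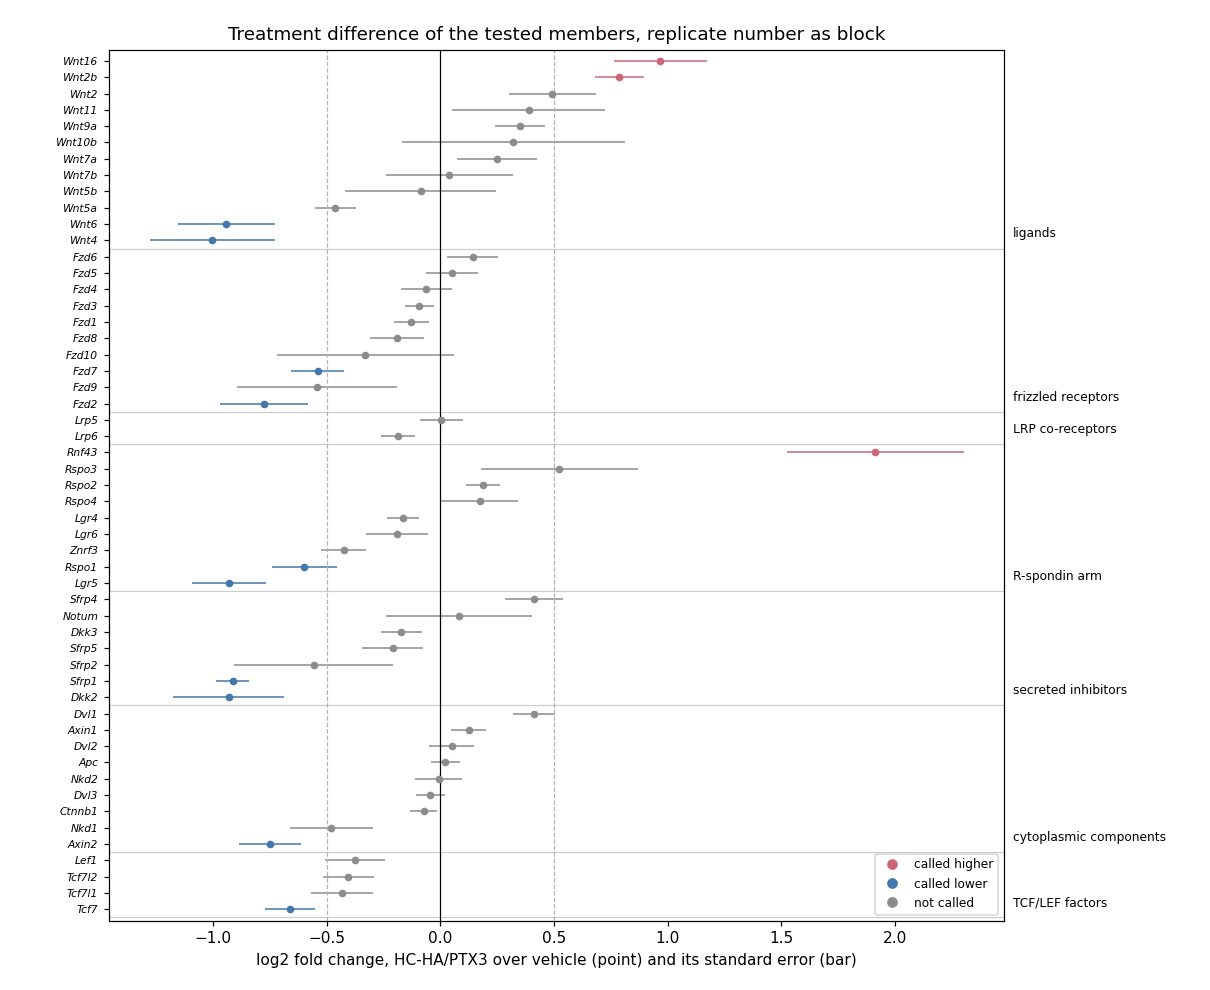
Log2 fold change of HC-HA/PTX3 over vehicle with its standard error for the 53 tested members, by role, from the blocked fit. Red marks the 3 members called higher and blue the 10 called lower, and dashed lines stand at -0.5 and 0.5.

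In the R-spondin arm, 9 genes, 1 was called higher and 2 lower, and the median log2 fold change was -0.17. Over the 6 libraries Lgr4, a receptor for R-spondins, had the highest level per length at 8.82 CPM per kb. The ligand gene Rspo2 followed at 8.32 CPM per kb, but was the higher in the HC-HA/PTX3 cultures (8.80 against 8.28 CPM per kb). Lgr4 was at 72.0, 62.3 and 30.9 CPM with vehicle and 64.6, 52.7 and 28.9 CPM with HC-HA/PTX3. Replicate 3 was lowest in both groups, and its log2 fold change of -0.17 ± 0.07 (SE) did not pass (adjusted p = 0.127). Rspo1, a secreted R-spondin that amplifies WNT signals (chromosome 4 of mm10, 124986430 to 125009099), was at 9.19, 9.64 and 7.98 CPM with vehicle and 4.69, 7.28 and 5.87 CPM with HC-HA/PTX3. All HC-HA/PTX3 cultures lay under all vehicle cultures. The log2 fold change of Rspo1 was -0.60 ± 0.14 (SE; adjusted p = 0.0165), and the call was lost without replicate 1 (-0.42, adjusted p = 0.151, among 0.000253 to 0.351 over its alternatives).

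Lgr5, a target gene and R-spondin receptor known as a stem cell marker (chromosome 10 of mm10, 115450311 to 115587780), was at 12.6, 9.38 and 4.02 CPM with vehicle and 6.79, 6.15 and 1.47 CPM with HC-HA/PTX3. The groups overlapped through vehicle replicate 3, and HC-HA/PTX3 was the lower culture in each pair. The fitted log2 fold change of Lgr5 was -0.93 ± 0.16 (SE; adjusted p = 0.00404). Rnf43, the ubiquitin ligase that clears frizzled receptors (chromosome 11 of mm10, 87662722 to 87735539), had counts of 5, 4 and 11 with vehicle and 15, 14 and 32 with HC-HA/PTX3, or 0.125, 0.0931 and 0.196 CPM and 0.404, 0.369 and 0.813 CPM. The groups did not overlap, and over the 6 libraries the gene had the lowest level per length of all members. In the HC-HA/PTX3 cultures Wif1 (0.0547 CPM per kb) and Wnt10b (0.0762) were lower than Rnf43 (0.0806). The fitted log2 fold change of Rnf43 was 1.91 ± 0.39 (SE; adjusted p = 0.00807). Rnf43 reached the test through the HC-HA/PTX3 libraries only, with 0 of 3 vehicle libraries over the filter of 0.247 CPM before TMM scaling. With no low-count filter it was also called (adjusted p = 0.000726). Rnf43 also met the count limit for members only with the HC-HA/PTX3 libraries, where it is high, so this call supports nothing. Without replicate 3 its adjusted p was 0.0529, among 0.000567 to 0.268 over its alternatives.

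Znrf3, the sister ligase of Rnf43, was at 21.3, 21.0 and 22.3 CPM with vehicle and 16.4, 17.2 and 14.5 CPM with HC-HA/PTX3. The groups did not overlap and the vehicle values lay close together. Its log2 fold change of -0.43 ± 0.10 (SE; adjusted p = 0.0147) stayed under the fold threshold, which it passed without replicate 2 (-0.50, adjusted p = 0.0379, among 0.00139 to 0.286 over its alternatives). Rspo3, near the count limit with counts of 20, 13 and 10 and 23, 20 and 10, had a log2 fold change of 0.52 ± 0.35 (SE) that did not pass (adjusted p = 0.321). Rspo2, Rspo4 and Lgr6 had log2 fold changes from -0.19 to 0.19, and none was called.

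Of 8 secreted inhibitors, 7 were tested, of which 2 were called lower and 0 higher, with a median log2 fold change of -0.21. Sfrp1, which binds WNT ligands outside the cell (chromosome 8 of mm10, 23411502 to 23449632), had the highest level per length of the inhibitors, 27.8 CPM per kb, and stood at 241, 158 and 74.0 CPM with vehicle and 132, 91.5 and 34.3 CPM with HC-HA/PTX3. The groups overlapped because pair 1 was far above pair 3, while in each pair HC-HA/PTX3 was the lower culture. For Sfrp1 the log2 fold change was -0.92 ± 0.07 (SE; adjusted p = 0.000209), the smallest adjusted p among the members, and it was the 1 member that edgeR's glmTreat called against a log2 fold change of 0.5. Dkk2, a ligand of the LRP co-receptors (chromosome 3 of mm10, 132085292 to 132180304), was at 2.92, 3.70 and 1.89 CPM with vehicle and 1.16, 3.01 and 0.711 CPM with HC-HA/PTX3. The groups overlapped, since HC-HA/PTX3 replicate 2 lay above the vehicle replicates 1 and 3. The log2 fold change of Dkk2 was -0.93 ± 0.24 (SE; adjusted p = 0.0245), and the call was lost without replicate 1 (adjusted p = 0.159) and without replicate 3 (adjusted p = 0.0557), among 3.57e-05 to 0.633 over its alternatives.

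Sfrp5, a relative of Sfrp1 named after its values were seen, was at 28.5, 4.91 and 0.822 CPM with vehicle and 21.7, 4.80 and 0.787 CPM with HC-HA/PTX3. The pairs differed far more than the treatments, and its log2 fold change of -0.21 ± 0.13 (SE) did not pass (adjusted p = 0.304) and was -0.03 without replicate 1 and -0.32 without replicate 2. Sfrp4, likewise named after its values were seen, shifted by a log2 fold of 0.41 ± 0.13 (SE; adjusted p = 0.0464), under the fold threshold, and was called without replicate 3 (0.51, adjusted p = 0.0238, among 0.0114 to 0.690) but was 0.27 (adjusted p = 0.329) without replicate 1. Sfrp2 was at 0.624, 1.93 and 0.589 CPM with vehicle and 0.512, 1.79 and 0.127 CPM with HC-HA/PTX3, with replicate 2 highest in both groups and a log2 fold change of -0.56 ± 0.35 (SE) that did not pass (adjusted p = 0.299) and was -1.03 without replicate 2 and -0.15 without replicate 3. Dkk3 had a log2 fold change of -0.17 and was not called. Wif1, a secreted WNT-binding inhibitor, failed the low-count filter of the main fit and was not tested there, with counts of 30, 17 and 12 in the vehicle and 6, 8 and 1 in the HC-HA/PTX3 libraries. Every HC-HA/PTX3 library was below every vehicle library in CPM, the closest being vehicle replicate 3 at 0.214 and HC-HA/PTX3 replicate 2 at 0.211 CPM. Wif1 met the count limit for members only through the vehicle libraries, where it is high, so its lower call in the alternative with no low-count filter supports nothing.

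Inside the cell, 9 members carry or restrain the signal, of which 1 was called lower and 0 higher, and the median log2 fold change was -0.01. Ctnnb1, which encodes beta-catenin, had the highest level per length of all members at 74.0 CPM per kb, followed by Apc, a scaffold of the destruction complex, at 55.8 CPM per kb. Ctnnb1 was at 409, 412 and 359.9 CPM with vehicle and 396, 394 and 334 CPM with HC-HA/PTX3. The groups overlapped, and the log2 fold change of -0.07 ± 0.06 (SE) did not pass (adjusted p = 0.425; -0.04 without replicate 3). Axin2, a destruction complex scaffold and feedback target (chromosome 11 of mm10, 108920349 to 108950783), was at 25.8, 16.3 and 8.45 CPM with vehicle and 14.2, 12.6 and 4.01 CPM with HC-HA/PTX3. HC-HA/PTX3 was the lower culture in each pair, and the groups overlapped because pair 3 was lowest in both. For Axin2 the log2 fold change was -0.75 ± 0.14 (SE; adjusted p = 0.00483), and the call was lost without replicate 1 (adjusted p = 0.0594, among 5.70e-08 to 0.683 over its alternatives). An antisense gene, Gm11670, overlaps 3.8% of the exon bases of Axin2, and without a stated strand setting its reads cannot be told apart. Antisense genes also overlap 13 members that were not called, from 0.721% of the exon bases of Dvl1 to 29.4% of those of Notum (Notumos, with a further 8.72% under Myadml2os), among them Ctnnb1 with 14.6%, Lef1 with 13.7%, Sfrp2 with 16.1% and Rspo3 with 13.1%.

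Nkd1, which binds Dishevelled and restrains the pathway, was at 6.27, 4.89 and 5.20 CPM with vehicle and 3.42, 5.01 and 3.38 CPM with HC-HA/PTX3. The groups overlapped through replicate 2 of HC-HA/PTX3. Its log2 fold change of -0.48 ± 0.18 (SE) did not pass (adjusted p = 0.0931) but did without replicate 2 (-0.75, adjusted p = 0.0370, among 0.0138 to 0.484), and was -0.29 (adjusted p = 0.467) without replicate 1. Dvl1, a Dishevelled adaptor named after its values were seen, was at 40.7, 53.2 and 56 CPM with vehicle and 66.5, 65.8 and 65.8 CPM with HC-HA/PTX3. These groups did not overlap, and its log2 fold change of 0.41 ± 0.09 (SE; adjusted p = 0.0125) was under the fold threshold, passing it without replicate 3 (0.52, adjusted p = 0.00220, among 8.21e-05 to 0.339) and at 0.27 (adjusted p = 0.0719) without replicate 1. Apc, Axin1, Dvl2, Dvl3 and Nkd2 had log2 fold changes from -0.04 to 0.12, and none was called.

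The 4 TCF/LEF genes encode the DNA-binding partners of beta-catenin, and all had fitted log2 fold changes below 0, with a median of -0.42, while 1 was called. Tcf7 (chromosome 11 of mm10, 52252371 to 52283014), the highest per length at 6.68 CPM per kb and itself a target gene, was at 25.9, 23.2 and 14.7 CPM with vehicle and 16.0, 17.5 and 7.85 CPM with HC-HA/PTX3. HC-HA/PTX3 was the lower culture in each pair, with groups that overlapped through vehicle replicate 3. Its log2 fold change was -0.66 ± 0.11 (SE; adjusted p = 0.00341). Tcf7l1 had -0.43 ± 0.14 (SE; adjusted p = 0.0481) and Tcf7l2, named after its values were seen, -0.41 ± 0.11 (SE; adjusted p = 0.0303), both log2 fold changes under the fold threshold. Lef1 was at 13.2, 9.36 and 10.5 CPM with vehicle and 9.19, 9.15 and 7.11 CPM with HC-HA/PTX3. The groups did not overlap, the highest HC-HA/PTX3 value being replicate 1, and the log2 fold change of -0.37 ± 0.13 (SE) did not pass (adjusted p = 0.0742). Without replicate 2, all 3 of these were called, with log2 fold changes of -0.65 for Tcf7l1, -0.58 for Tcf7l2 and -0.55 for Lef1. The values closest to 0 were -0.24 (adjusted p = 0.241) for Tcf7l1 and -0.26 (adjusted p = 0.293) for Lef1, both without replicate 3, and -0.30 (adjusted p = 0.215) for Tcf7l2 without replicate 1. Over the alternatives the adjusted p ran from 0.00110 to 0.860 for Tcf7l1, from 0.00155 to 0.653 for Tcf7l2 and from 0.0262 to 0.512 for Lef1.

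Genes that the pathway itself turns on were taken as a list of 10 feedback targets, of which 8 were tested. The list was chosen with earlier results of these data known. Axin2, Tcf7 and Lgr5 were called lower, 3 of 8 beside 5.38% of all tested genes. Rnf43 was called higher, but passed the filter only through the HC-HA/PTX3 libraries. Its call is therefore not set against the 3.32% of higher calls. Counting Rnf43 there were 4 calls of 8, which is likewise not set against the share over all tested genes. Still counting Rnf43, 7 of 8 were called without replicate 2, where Znrf3, Lef1 and Nkd1 were gained as lower calls. Without replicate 1 it was 3 of 8, with Axin2 lost. Without replicate 3, where Rnf43 was lost, 3 of 8 were called, beside 6.88% of all genes. The shares over all genes were 8.5% without replicate 2 and 4.74% without replicate 1, given for scale only, since those counts hold Rnf43. The median log2 fold change of the 8 was -0.45 beside -0.01 over all tested genes. Nkd1, Lef1 and Znrf3 had values below 0 that were not called. Notum, an enzyme that removes the lipid from WNT ligands, had counts of 19, 18 and 31 with vehicle and 13, 19 and 27 with HC-HA/PTX3. The groups overlapped, and its log2 fold change of 0.08 ± 0.32 (SE) did not pass (adjusted p = 0.892). Its sign turned without replicate 2 and without replicate 3 (-0.06 in the latter). Wif1 was not tested in the main fit, and Dkk1, outside the count limit, had counts of 4, 8 and 7 and 2, 2 and 0.

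The members also differed between the replicate numbers. In the same edgeR fit, 31 of the 53 tested members (58.5%) differed between the 3 pairs at an adjusted p under 0.05, beside 33.8% of all tested genes. Of the 31, 16 were highest in pair 1, 11 in pair 2 and 4 in pair 3, and 26 were lowest in pair 3. Among all tested members, called or not, 64.2% were lowest in pair 3. Sfrp5 had the largest difference, with pair means of 25.1, 4.86 and 0.804 CPM in pairs 1, 2 and 3. The highest was 31.2 times the lowest (adjusted p = 1.03e-07). Wnt6 had pair means of 3.29, 2.06 and 0.336 CPM (adjusted p = 5.15e-05), Sfrp1 of 187, 125 and 54.1 CPM (adjusted p = 1.39e-06) and Axin2 of 20.0, 14.4 and 6.23 CPM (adjusted p = 0.000119). Pair 3 was lowest in each. Of the 10 members called lower after HC-HA/PTX3, 8 also differed between pairs, and pair 3 was lowest in all 8. The matching counts over all tested genes were not made, so these counts are not read as particular to the members. Satellite glia, fibroblast, mural and dividing-cell sums were also lowest in pair 3 of both groups, with the values given above. The part of these cells in the differences between pairs was not tested.

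**Figure D5:**
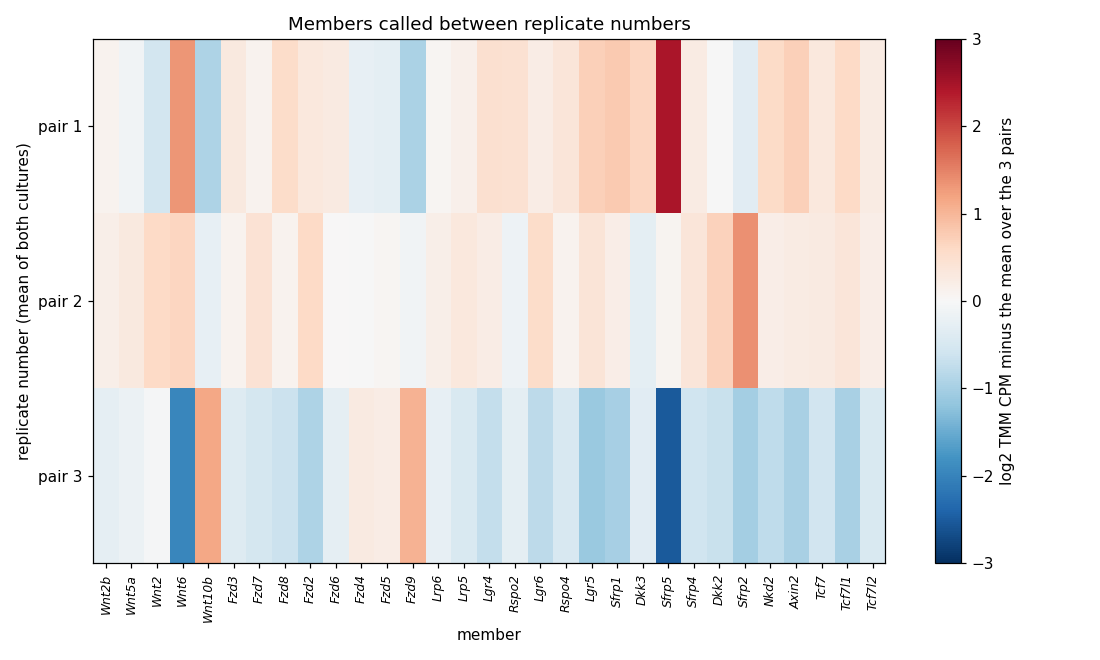
Log2 TMM CPM of the mean of each same-numbered pair minus the mean over the 3 pairs, for the 31 members that differed between replicate numbers (blue lower, red higher). Pair 3 was lowest in 26 of the 31, and Sfrp5 had the widest range.

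The rest of the pathway was given by 65 other genes, also chosen with earlier results of these data known, of which 62 were tested. Kremen2, Sost and Sp5 failed the low-count filter. Of the 62, 1 was called higher and 14 lower (24.2% in all, beside 8.7% of all tested genes; 9 called without replicate 3), and the median log2 fold change was -0.12. By role, lower calls numbered 4 of 11 in planar cell polarity, 2 of 9 among co-receptors of ligands, 2 of 7 among secreted or membrane inhibitors, 2 of 11 among nuclear co-factors and 4 of 11 among other targets. The ligand secretion genes Porcn and Wls and the 11 genes of beta-catenin destruction, Gsk3b among them, had no call. Apcdd1, a membrane inhibitor that binds WNT ligands, was at 24.0, 7.73 and 4.86 CPM with vehicle and 8.92, 4.33 and 2.16 CPM with HC-HA/PTX3. Pair 1 was highest in both groups, which overlapped, and its log2 fold change was -1.16 ± 0.14 (SE; adjusted p = 0.000965).

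Wisp1, a secreted matricellular target, had 19.4, 20.7 and 21.8 CPM with vehicle and 12.4, 11.9 and 13.4 CPM with HC-HA/PTX3. The groups lay apart with little spread in each, and the log2 fold change was -0.71 ± 0.09 (SE; adjusted p = 0.00120). Vangl2, a core planar cell polarity gene, was at 12.4, 13.0 and 6.43 CPM with vehicle and 4.96, 9.13 and 2.54 CPM with HC-HA/PTX3. HC-HA/PTX3 was the lower culture in each pair, the groups overlapped, and the log2 fold change was -1.03 ± 0.17 (SE; adjusted p = 0.00322). The 1 gene called higher was Dkkl1, a relative of the Dkk genes, at 1.12, 1.30 and 1.96 CPM with vehicle and 2.13, 2.0 and 3.48 CPM with HC-HA/PTX3. Its groups did not overlap, with vehicle replicate 3 just below HC-HA/PTX3 replicate 2, and the log2 fold change was 0.79 ± 0.19 (SE; adjusted p = 0.0166). The other 8 of the 12 called genes with the smallest p, Bcl9l, Gpc4, Vangl1, Sostdc1, Daam2, Twist1, Adgra2 and Ccnd2, had log2 fold changes from -0.92 (Adgra2) to -0.50 (Sostdc1).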

How the data were processed

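The deposited files hold the number of reads counted on each gene, 1 table of counts for each of the 6 libraries. The submitters' processing notes name HISAT2, featureCounts, Subread and mm10, while the deposited column headers name STAR alignments. The study's methods name RefSeq genes for the alignment and an Ensembl annotation for the counting, and the symbols in the files look like those of RefSeq. GENCODE annotation for lengths, positions and overlaps was joined by symbol. The strand setting of the counting is not given in the sources used here.

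Counts were scaled by TMM, filtered with filterByExpr and fitted with the quasi-likelihood test of edgeR 4.0.16 in R 4.3.3, with the replicate number as a block and Benjamini-Hochberg adjustment over all tested genes. The study's methods use such a batch term, and the fit was chosen with the counts of calls with and without it known. As a check of the pairing, deviations from the group means had correlations of 0.631, 0.536 and 0.774 between same-numbered cultures and of -0.613 to 0.148 between others. Alternatives used limma 3.58.1, DESeq2 1.42.0 and ComBat-seq (sva 3.50.0), other scalings, filters and fold thresholds, the fit without the block, and each pair left out, since with the block a lone culture carries no information on the treatment.

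Members and lists were chosen with earlier results of these data known. Genes named were the called members, the 8 largest changes not called, the highest per length in each role, the feedback targets, those at the count limit, and the 12 other pathway genes called with the smallest p. Exceptions are marked. Library pairs within groups differed by far more than sampling noise (chi-square of 34.1 to 120.0 for each degree of freedom), so none was counted as a duplicate. Of the marker lists 1, and of the medium supplements 1, is not reported here. Floors in CPM cover counting error only. The scripts were tested on simulated data. Promoter sequences came from RefSeq (GRCm38.p6).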

Additional observations from a re-analysis of the deposited data

How the results depend on the processing

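Without the replicate block, which leaves the pairing out of the fit, the called members fell from 13 to 0, all tested genes from 1591 to 0 and other pathway genes from 15 to 0. The signs of the called members stayed the same without the block. That was nearly fixed, since each of them moved the same way in every pair. An adjusted p alone gave 20 members, 3505 genes and 24 other pathway genes, and glmTreat gave 1, 295 and 1. Leaving out each pair gave 6 to 17 members, 878 to 1571 genes and 9 to 14 other pathway genes. Other scalings, filters and tests gave 11 to 14 members, 1211 to 2127 genes and 10 to 17 other pathway genes. The members called between replicate numbers were repeated only under other scalings and filters, and ranged from 29 to 36. The cause of these differences was not tested, except that an adjusted p alone and glmTreat differ by construction and that leaving out a pair leaves fewer cultures.

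Apart from glmTreat and an adjusted p alone, which change only the rule for a call, the fits were repeated for the tested members named under the rule or marked as exceptions, other than Wnt10b. Of these values, 303 kept their direction and their call or lack of it, 28 lost the call, 10 gained it and 2 reversed. A value that kept its lack of a call could still cross the adjusted p threshold alone, as Wnt9a, Tcf7l1 and Rspo3 did. The reversed values were those of Notum, with log2 fold changes of -0.00065 without replicate 2 and -0.055 without replicate 3 (range over pairs left out -0.055 to 0.285), and the cause was not tested. In these fits Wnt2b, Lgr5, Sfrp1 and Tcf7 lost their call only without the block, and glmTreat called Sfrp1 alone. DESeq2 gave no adjusted p for Wnt4, Rnf43, Notum, Sfrp2, Fzd9 and Rspo3, and Rnf43, Sfrp2 and Fzd9 were removed by the stricter filter, so these have no value there.

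Depth limits the lowest members, such as Rnf43 and Wnt10b, where a few counts separate the libraries. With 3 cultures a group, spread is estimated from few values. Reads of overlapping genes could not be separated, and cell types were not separated.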
